A study of Homo sapiens with 22 samples.

Results

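A set of 9 genes of the pericellular protease system was followed in RNA-seq data from MDA-MB-231, a human breast cancer line of the triple-negative type (TNBC): the plasminogen activators PLAU and PLAT, the receptor PLAUR, the serpins SERPINE2 and SERPINB2, the matrix metalloproteinases MMP1, MMP3 and MMP14, and the inhibitor TIMP1. They were chosen by symbol with earlier results of these data known, so counts of members set against all genes are descriptive. The genes are 9 of 20668 symbols with a value in each of 10 samples. Cells were kept for days in medium with charcoal-stripped serum and then given vehicle, 100 nM Dex (dexamethasone, a synthetic glucocorticoid) for 2 h or 4 h, or 10 μM CpdA (Compound A, a selective GR modulator) for 2 h or 4 h, with 2 biological replicates in each of the 5 groups. The labels gave vehicle no time point, although the column names inside the vehicle tables carry 2 h for replicate 1 and 4 h for replicate 2, so the spread between the vehicle replicates may include a difference in time. The series compares genes regulated by the 2 ligands of the glucocorticoid receptor (GR), which differ in dose as well as in structure.

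Plasminogen activators are secreted serine proteases that cut plasminogen to plasmin, a broad protease of fibrin and matrix. PLAU (urokinase) works at the cell surface when bound to its receptor PLAUR, PLAT (tissue-type activator) is best known for acting on fibrin, and serpins trap these proteases in inactive complexes. Matrix metalloproteinases cut collagens and other matrix proteins, and TIMPs block them. In many cell types the genes of this system respond to AP-1, and glucocorticoids are known to repress AP-1 targets. In MDA-MB-231 cells, the study that reported these data saw no effect of Dex on AP-1 binding, at a time before those of the RNA samples. A part of AP-1 in the changes below was not tested.

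Values are RPKM, the reads on a gene set against the transcript's length and the sample's mapped reads. Read totals per sample were not used here. The steps between low RPKM values gave the relative depth, which was 1.0 and 1.01 for the vehicle samples and 1.06 to 1.21 for the treated samples. The labelled cell type was checked against markers. VIM lay between 1267 and 1464 RPKM and CD44 between 119.7 and 182.4, while ESR1 and PGR did not exceed 0.0048 and 0.0025. CDH1 stayed at or below 0.465 RPKM, but ERBB2 (15.9 to 21.6) and EPCAM (8.02 to 10.6), listed as low in such cells, were measured above that level. Of the 4 markers of other cell types, PTPRC reached 0.063, PECAM1 0.324, DCN 0.0142 and COL1A1 2.60 RPKM. Their summed level, mostly COL1A1, was 2.53 to 2.90 with vehicle, 1.94 to 1.99 after 2 h of Dex and 1.499 to 1.62 after 4 h, 2.10 to 2.13 after 2 h of CpdA and 1.75 to 1.84 after 4 h, and its part in the results below was not tested. In bulk RNA, fewer cells of a type and less RNA per cell cannot be told apart.

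With vehicle, the order of levels per length was TIMP1 (422.3 ± 2.8 RPKM, SD, n = 2), MMP14 (262.5 ± 13.5), PLAU (260.7 ± 28.5), PLAT (165.2 ± 2.0), PLAUR (63.7 ± 2.7), MMP1 (42.5 ± 0.72), SERPINE2 (6.08 ± 0.094), SERPINB2 (0.107 ± 0.075) and MMP3 (0.0105 ± 0.0149). MMP14 and PLAU overlapped between their replicates, and the other neighbours in this order did not. TIMP1 was the gene of rank 57, MMP14 of rank 129 and PLAU of rank 132 among the 12713 genes that had at least 0.5 RPKM in at least 2 samples. SERPINB2 and MMP3 did not pass that filter. The other 7 members were tested in one limma model over the 5 groups on log2(RPKM + 0.1), with Benjamini-Hochberg adjustment over the 12713 genes. A fold change on this scale understates that of genes with low values, and with 2 samples against 2 an exact permutation test cannot reach 0.05, so each call rests on the spread that limma pools over groups and genes. The p-values measure only the spread between these samples of one cell line.

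**Figure D1:**
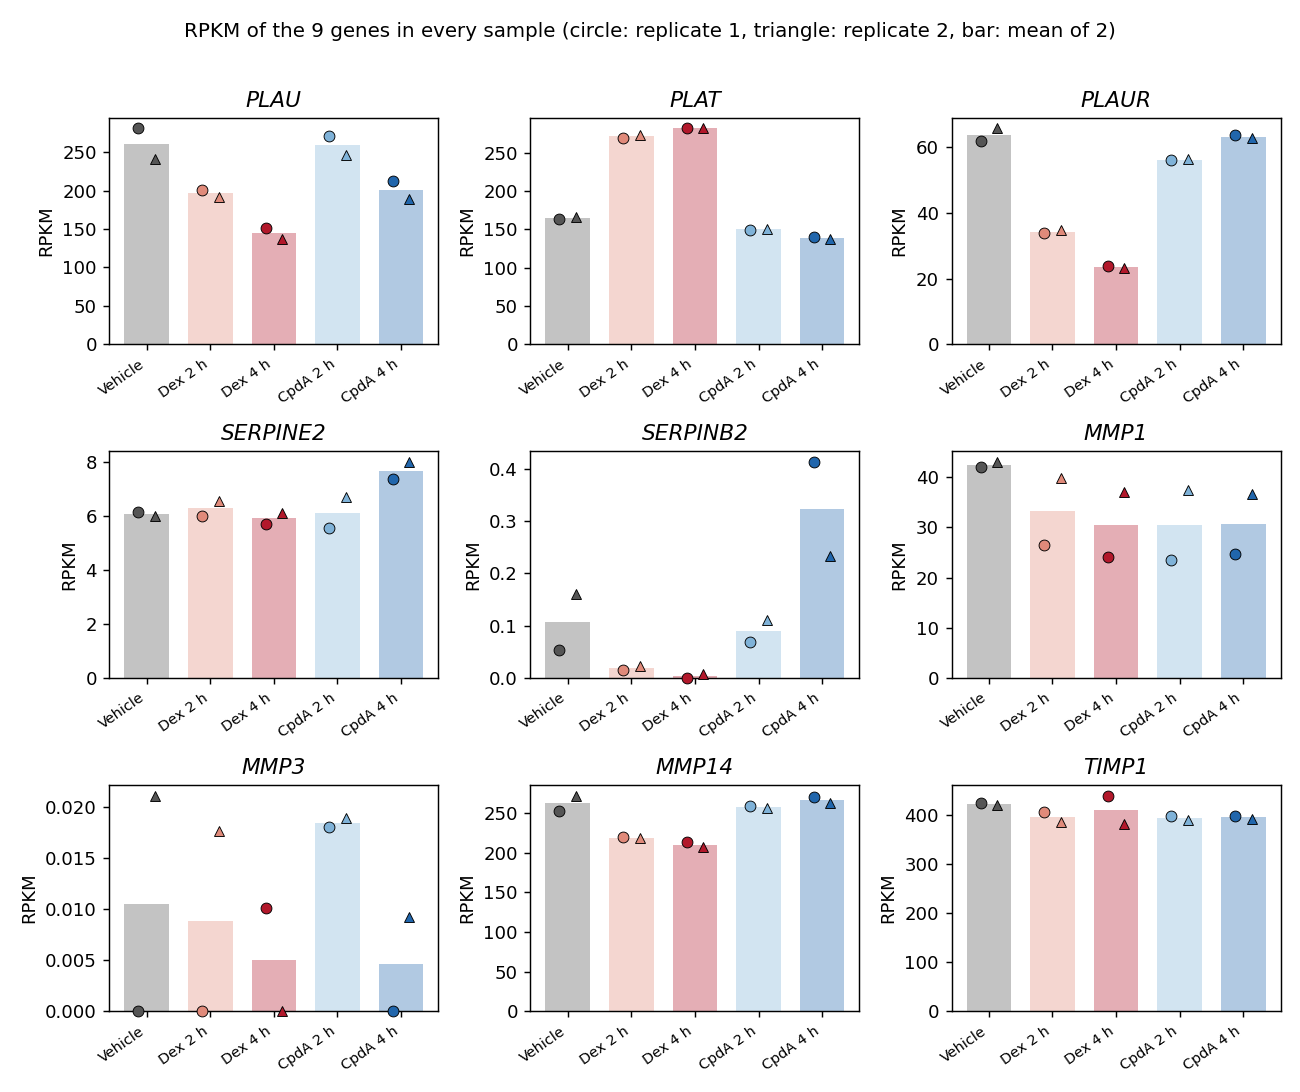
RPKM of the 9 genes (y axes, each from 0) in the 5 groups, with replicate 1 as a circle, replicate 2 as a triangle and the mean of 2 as a bar. PLAUR fell with Dex from 63.7 to 23.5 at 4 h, PLAT rose from 165.2 to 281.9, and the MMP1 replicates lay apart in each of the 4 treated groups.

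Dex lowered PLAU, PLAUR and MMP14 and raised PLAT at both time points. At Dex 2 h, 4 of the 7 members tested passed an adjusted p of 0.05, against 10.3% of all genes tested. Of the 4, 1 was higher (4.49% of all genes were) and 3 were lower (5.82%). After 4 h of Dex the count was again 4 of 7 against 27.4% of all genes, with 1 higher (9.26%) and 3 lower (18.2%). The median log2 fold change of the 7 was −0.26 at 2 h and −0.32 at 4 h, where the median over all genes was −0.018 and −0.052. With CpdA, 1 of 7 passed at 2 h, against 6.18% of all genes, and it was lower (4.29%). At 4 h of CpdA 3 of 7 passed, against 20.5% of all genes, with 1 higher (6.76%) and 2 lower (13.8%). The CpdA comparisons had member medians of −0.098 and −0.096 against −0.016 and −0.037 over all genes. The Dex and CpdA comparisons share their vehicle samples.

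PLAU, the gene of urokinase, lies on chromosome 10 of GRCh37 from 75668935 to 75677254 (GENCODE v44 lifted to that build). It had 280.9 and 240.6 RPKM with vehicle, 201.3 and 191.7 after 2 h of Dex, and 151.6 and 137.5 after 4 h. With CpdA it had 271.7 and 246.5 at 2 h and 212.2 and 189.0 at 4 h. All 4 Dex samples lay below both vehicle samples, as did both CpdA 4 h samples, while the CpdA 2 h samples lay among the vehicle values. The log2 fold change was −0.40 at Dex 2 h (SE 0.089, limma adjusted p = 0.0194) and −0.85 at Dex 4 h (limma adjusted p = 0.000115), where the mean RPKM fell by 44.5%. At CpdA 4 h it was −0.38 (adjusted p = 0.0174, limma), and at CpdA 2 h −0.0063 (95% interval −0.21 to 0.20). Without vehicle replicate 1 the Dex 2 h value became −0.29 (adjusted p = 0.0936, limma) and the CpdA 4 h value −0.26 (adjusted p = 0.107, limma). The Dex 2 h call was also lost without Dex 2 h replicate 1 (−0.44, adjusted p = 0.0745, limma) or replicate 2 (−0.37, adjusted p = 0.125, limma), and the CpdA 4 h call without CpdA 4 h replicate 2 (−0.29, adjusted p = 0.133, limma). An antisense gene, C10orf55, overlaps PLAU and stayed at or below 1.41 RPKM. Whether counting used strand is not given in the sources used here.

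PLAUR, which anchors urokinase to the membrane, fell most among the 7 tested members. It lies on chromosome 19 of GRCh37 from 44150247 to 44174699 on the reverse strand. Its RPKM was 61.8 and 65.6 with vehicle, 33.8 and 34.8 after 2 h of Dex, and 23.7 and 23.3 after 4 h. With CpdA it was 56.1 and 56.2 at 2 h and 63.7 and 62.6 at 4 h. The Dex groups lay below every other sample and did not overlap each other, and at CpdA 4 h both values fell between those of the vehicle replicates. The log2 fold change was −0.89 at Dex 2 h (SE 0.041, limma adjusted p = 1.01e-06) and −1.43 at Dex 4 h (limma adjusted p = 2.85e-08). Of the 7 tested members, PLAUR at Dex 4 h was the 1 called past a fold change of 2 against vehicle (2.70-fold lower), a threshold that 3.78% of all genes passed there, 2.01% after 2 h of Dex, and 0.488% and 0.889% after 2 h and 4 h of CpdA. With CpdA its log2 fold change of −0.18 at 2 h passed the threshold (adjusted p = 0.0345, limma), and at 4 h it was −0.013 (95% interval −0.11 to 0.080). The CpdA 2 h call was lost without vehicle replicate 2 (−0.14, adjusted p = 0.179), without either CpdA 2 h replicate (−0.18, adjusted p = 0.221 and 0.193), without either Dex 2 h replicate (−0.18, adjusted p = 0.0621 and 0.0623) and without either CpdA 4 h replicate (−0.18, adjusted p = 0.0768 and 0.0769, all limma).

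PLAT, the gene of tissue-type plasminogen activator, moved opposite to PLAU and PLAUR with Dex. On chromosome 8 it lies from 42032236 to 42065227 on the reverse strand (GRCh37). The vehicle samples had 163.8 and 166.7 RPKM, against 270.1 and 272.9 after 2 h of Dex and 281.9 and 281.9 after 4 h. With CpdA the values were 149.6 and 151.1 at 2 h and 139.8 and 137.2 at 4 h. Every Dex sample was above every vehicle sample, and every CpdA sample was below. PLAT rose by a log2 fold change of 0.72 at Dex 2 h (SE 0.035, limma adjusted p = 1.5e-06) and 0.77 at Dex 4 h (limma adjusted p = 4.56e-07), or 1.71-fold in mean RPKM at 4 h. It fell by 0.25 on the log2 scale at CpdA 4 h (adjusted p = 0.00118, limma). At CpdA 2 h the value of −0.14 did not pass (adjusted p = 0.0561, limma), but it passed without Dex 4 h replicate 1 (−0.14, adjusted p = 0.0234, limma) or replicate 2 (−0.14, adjusted p = 0.0236, limma).

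SERPINE2 and SERPINB2 are serpins. SERPINE2 encodes protease nexin-1, which inhibits thrombin and the plasminogen activators, and lies on chromosome 2 from 224839762 to 224904035 on the reverse strand (GRCh37). Its replicates were 6.14 and 6.01 RPKM with vehicle, 6.002 and 6.59 after 2 h of Dex, and 5.71 and 6.14 after 4 h. With CpdA they were 5.58 and 6.71 at 2 h and 7.38 and 8.02 at 4 h. Only the CpdA 4 h samples stood above all others, with a log2 fold change of 0.34 over vehicle (SE 0.092, limma adjusted p = 0.0315). With Dex it was 0.048 at 2 h (95% interval −0.16 to 0.26) and −0.037 at 4 h (−0.24 to 0.17). The call at CpdA 4 h was lost without vehicle replicate 1 (0.35, adjusted p = 0.0901), vehicle replicate 2 (0.32, adjusted p = 0.108), CpdA 4 h replicate 1 (0.39, adjusted p = 0.0765) or CpdA 4 h replicate 2 (0.28, adjusted p = 0.191, all limma).

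SERPINB2 encodes PAI-2, an inhibitor of urokinase, and lies on chromosome 18 from 61538926 to 61571122 (GRCh37). It was near the detection limit, so its RPKM steps were turned into reads. All 10 values were whole multiples of 1 read after the depth correction, with a largest distance from a whole number of 0.0001. The reads were 6 and 18 with vehicle, 2 and 3 after 2 h of Dex, 0 and 1 after 4 h, 9 and 14 after 2 h of CpdA, and 53 and 30 after 4 h. Each Dex sample had fewer reads than each vehicle or CpdA sample, and both CpdA 4 h samples had more than any other. Summed over replicates and set per depth, SERPINB2 at Dex 4 h was 0.039 of the vehicle level (exact 95% counting interval 0.0009 to 0.239), at Dex 2 h 0.179 (0.0532 to 0.478), at CpdA 2 h 0.833 (0.449 to 1.54) and at CpdA 4 h 3.00 (1.89 to 4.95). These intervals cover counting error only, and the vehicle replicates themselves differed 2.96-fold in RPKM. The vehicle column named 2 h had the 6 reads and that named 4 h the 18. Ratios to vehicle may thus include a difference in time, which was not tested. When limma was run with no filter on low values, the Dex and CpdA samples at 4 h differed by −1.99 on the log2 scale (adjusted p = 0.0037, limma), whereas neither Dex 4 h (−0.94, adjusted p = 0.0786, limma) nor CpdA 4 h (1.04, adjusted p = 0.0718, limma) passed against vehicle.

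**Figure D2:**
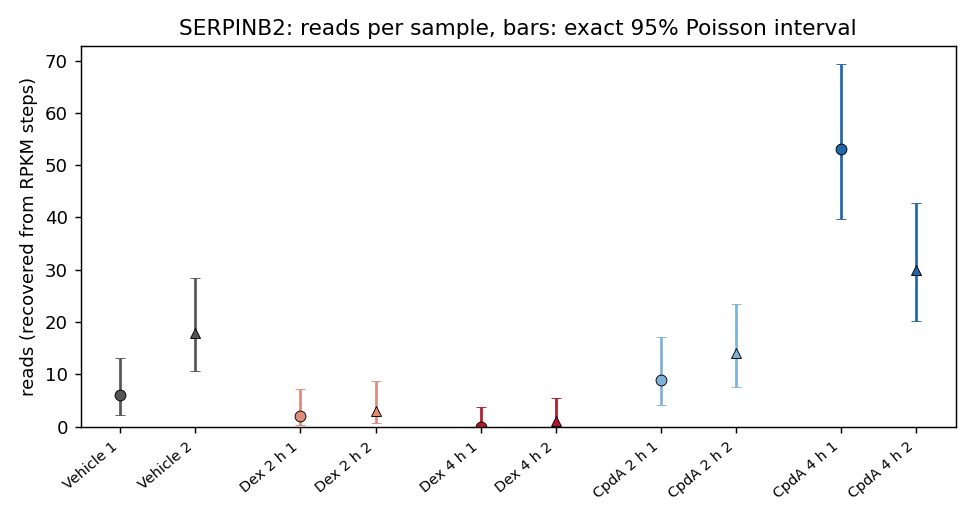
Reads of SERPINB2 (y axis) in each of the 10 samples, recovered from RPKM steps, with exact 95% Poisson intervals. The Dex 4 h samples had 0 and 1 read and the CpdA 4 h samples 53 and 30.

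MMP14 encodes a membrane-anchored collagenase that also activates secreted metalloproteinases, and lies on chromosome 14 from 23305769 to 23318250 (GRCh37). Its RPKM was 252.9 and 272.1 with vehicle, 220.5 and 218.2 after 2 h of Dex, and 213.5 and 206.8 after 4 h. With CpdA it was 259.1 and 256.8 at 2 h and 271.0 and 262.9 at 4 h. The 4 Dex samples were below the 6 others, and the CpdA samples lay within the range of the vehicle samples. The log2 fold change was −0.26 at Dex 2 h (SE 0.045, limma adjusted p = 0.00561) and −0.32 at Dex 4 h (limma adjusted p = 0.000714). The mean RPKM fell by 16.5% at 2 h and fell by 19.9% at 4 h. With CpdA the log2 fold change was −0.024 at 2 h (95% interval −0.13 to 0.078) and 0.025 at 4 h (−0.077 to 0.13).

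MMP1, the interstitial collagenase, lies on chromosome 11 from 102660132 to 102668891 on the reverse strand (GRCh37). It had 42.0 and 43.1 RPKM with vehicle, 26.6 and 39.9 after 2 h of Dex, and 24.0 and 36.99 after 4 h. With CpdA it had 23.5 and 37.4 at 2 h and 24.8 and 36.6 at 4 h. Every treated sample was below both vehicle samples, and in each treated group replicate 2 was 1.48-fold to 1.59-fold above replicate 1, while the vehicle replicates differed 1.02-fold. None of the 4 log2 fold changes, −0.38 and −0.51 with Dex and −0.52 and −0.50 with CpdA, passed the threshold (SE 0.29, adjusted p = 0.528, 0.235, 0.358 and 0.271, limma). The 95% interval at Dex 4 h ran from −1.17 to 0.15.

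MMP3 (stromelysin-1), which lies on chromosome 11 from 102706532 to 102714340 on the reverse strand (GRCh37), had 10 reads over the 10 samples. These were 0 and 2 with vehicle, 0 and 2 after 2 h of Dex, 1 and 0 after 4 h, 2 and 2 after 2 h of CpdA, and 0 and 1 after 4 h. No difference between groups was detectable at this depth. TIMP1, an inhibitor of most matrix metalloproteinases, lies on chromosome X from 47441807 to 47446188 (GRCh37), inside SYN1 on the other strand, which reached 0.046 RPKM. It had 424.3 and 420.3 RPKM with vehicle, 406.3 and 386.5 after 2 h of Dex, and 439.4 and 381.2 after 4 h. With CpdA it had 398.8 and 390.5 at 2 h and 398.7 and 391.8 at 4 h. The CpdA samples and the Dex 2 h samples were all below vehicle and the Dex 4 h replicates lay on both sides of it, but no log2 fold change passed the threshold. They were −0.092 and −0.045 with Dex and −0.098 and −0.096 with CpdA (SE 0.064, adjusted p = 0.487, 0.647, 0.444 and 0.336, limma). Without Dex 4 h replicate 1, the Dex 4 h value became −0.15 and passed (adjusted p = 0.0388, limma).

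**Figure D3:**
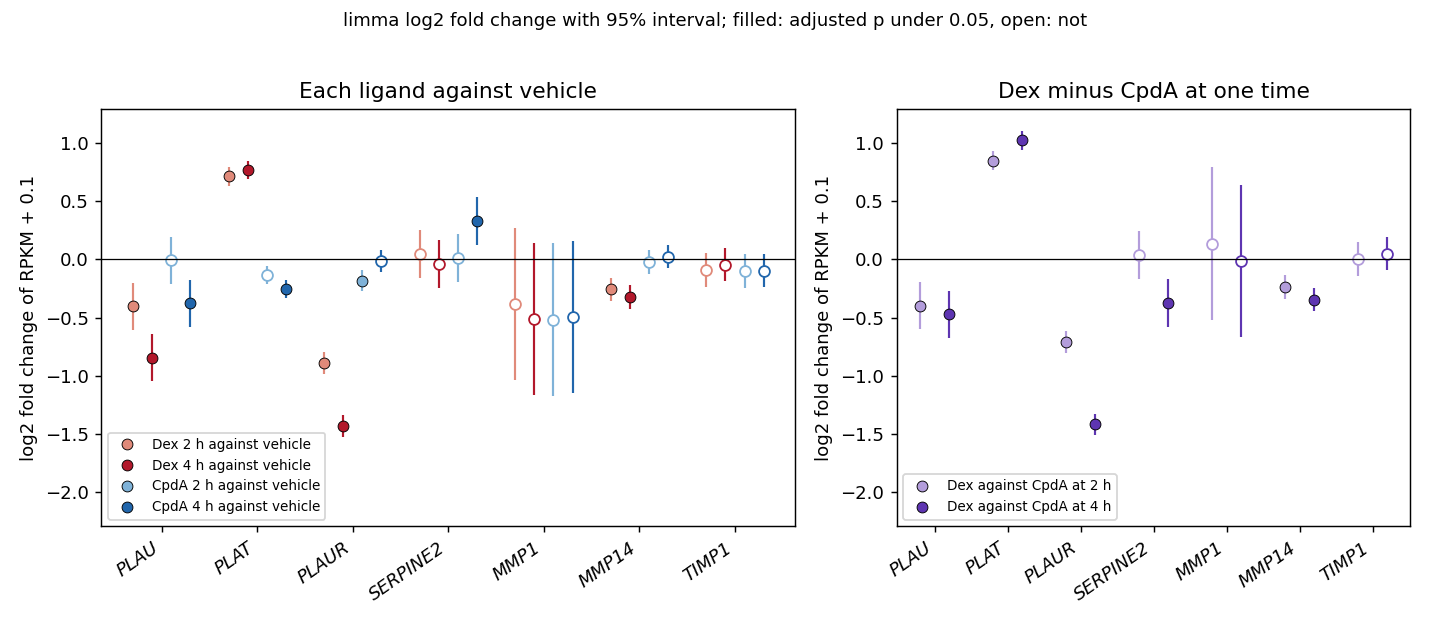
limma log2 fold changes of RPKM + 0.1 (y axes) with 95% intervals for the 7 tested genes, against vehicle on the left and Dex minus CpdA at the same time on the right. Filled points passed an adjusted p of 0.05. Against vehicle, the values ran from PLAUR at Dex 4 h (−1.43) to PLAT at Dex 4 h (0.77).

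The ligands were then compared directly at each time, at their different doses. At 2 h, 4 of the 7 tested members differed between Dex and CpdA, against 13.7% of all genes, with 1 higher under Dex (7.53%) and 3 lower (6.18%). At 4 h 5 of 7 differed, against 33.4% of all genes, with 1 higher (15.4%) and 4 lower (18%). PLAT was higher with Dex by 0.85 at 2 h (adjusted p = 3.93e-07, limma) and by 1.03 at 4 h (adjusted p = 7.5e-08, limma), or 2.04-fold. PLAUR was lower with Dex, with log2 differences of −0.71 and −1.42 (adjusted p = 3.85e-06 and 2.6e-08, limma). These 2 genes passed a fold change of 2 at 4 h, as 4.34% of all genes did. None of the 7 tested members did at 2 h, where 2.3% of all genes did. PLAU differed by −0.40 and −0.47 (adjusted p = 0.0169 and 0.00317, limma) and MMP14 by −0.23 and −0.35 (adjusted p = 0.00781 and 0.000357, limma). SERPINE2 was lower with Dex at 4 h by 0.37 on the log2 scale (adjusted p = 0.0123, limma), with a difference of 0.039 at 2 h (95% interval −0.17 to 0.25). MMP1 differed by 0.14 at 2 h (95% interval −0.52 to 0.79) and −0.014 at 4 h (−0.67 to 0.64), and TIMP1 by 0.0059 (−0.14 to 0.15) and 0.050 (−0.094 to 0.19).

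Some of these calls were lost when 1 sample was left out. At 2 h, PLAU no longer passed without Dex 2 h replicate 1 (−0.43, adjusted p = 0.0659), Dex 2 h replicate 2 (−0.36, adjusted p = 0.111) or CpdA 2 h replicate 1 (−0.33, adjusted p = 0.143, all limma). MMP14 at 2 h kept nearly the same difference but no longer passed without Dex 2 h replicate 1 (−0.24, adjusted p = 0.0511) or 2 (−0.23, adjusted p = 0.0616), or CpdA 2 h replicate 1 (−0.23, adjusted p = 0.0737) or 2 (−0.24, adjusted p = 0.057, all limma). SERPINE2 at 4 h was lost without Dex 4 h replicate 1 (−0.32, adjusted p = 0.0561, limma) or CpdA 4 h replicate 2 (−0.31, adjusted p = 0.0978, limma). TIMP1 at 4 h passed without Dex 4 h replicate 2 (0.15, adjusted p = 0.0231, limma). PLAT and PLAUR passed at both times in all 10 fits that left out 1 sample.

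A check that needs no variance model set the 4 Dex against the 4 CpdA samples, duplicates at 2 time points. PLAT, PLAUR, SERPINB2 and MMP14 did not overlap between the ligands. These were 4 of the 9 members, 3 of them among the 12713 genes, of which 26% did not overlap. PLAT was above with Dex (12.8% of genes were), and PLAUR, SERPINB2 and MMP14 were below (13.1%). Each had an exact two-sided permutation p = 0.0286, the smallest that 4 against 4 allow, not adjusted for the 9 genes compared. PLAU overlapped (exact permutation p = 0.0857), as did SERPINE2 (p = 0.229, exact), MMP1 (p = 0.629, exact), MMP3 (p = 0.486, exact) and TIMP1 (p = 0.714, exact).

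Between the time points, 2 of 7 members changed from 2 h to 4 h of Dex, against 13.6% of all genes (4.55% higher and 9.02% lower), and both, PLAU and PLAUR, were lower. With CpdA 3 of 7 changed, against 12.4% of all genes (5.21% higher and 7.2% lower), with PLAUR and SERPINE2 higher and PLAU lower. PLAUR fell further under Dex by 0.54 on the log2 scale (adjusted p = 0.000146, limma), from 34.3 ± 0.71 to 23.5 ± 0.30 RPKM (SD, n = 2). PLAT, already 1.64 times its vehicle mean at 2 h, changed by 0.055 (95% interval −0.025 to 0.13). MMP14 changed by −0.062 (−0.16 to 0.041). Across the 10 samples, log2 values of PLAUR and MMP14 had a Pearson r of 0.971, PLAT and MMP14 −0.961 and PLAT and PLAUR −0.938. These describe 5 groups of duplicates and carry no test. The 3 genes whose log2 values over the 10 samples were most like PLAUR were AMIGO2 (r = 0.992), CLDND1 (r = 0.992) and MAP2K3 (r = 0.991). AMIGO2 went from a mean of 73.1 RPKM with vehicle to 19.4 at Dex 4 h and 63.8 at CpdA 4 h.

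The sequence just upstream of the start site was read for the members in RefSeq's promoter table (GRCh38.p14), which held 8 windows for 6 of the 9 genes (PLAU, PLAUR, SERPINE2, SERPINB2, MMP14 and TIMP1). The 250 bases before each start were searched on both strands for AP-1 (TGANTCA), the palindromic glucocorticoid response element, an NF-κB site and a TATA box (TATAAA). PLAUR and SERPINB2 each held 1 AP-1 match, at −186 to −180 and at −102 to −96 from the start, a motif found in 6.57% of 35116 windows of the same length. SERPINB2 also held TATAAA at −30 to −25, as 10.72% of windows did. None of the 8 windows held the response element (0.33% of all windows) or the NF-κB site (1.73%). A match is a description of letters, and the windows leave out distal elements. The 2 windows with matches are shown because their genes fell with Dex or had their lowest reads there, and that of MMP14, which also fell, for comparison. PLAU, whose windows are not shown, held no match of any of these motifs. It fell more than MMP14 at Dex 4 h (log2 fold change −0.85 against −0.32). They lie at chr19:43670170-43670419 on the reverse strand for PLAUR, chr18:63887455-63887704 on the forward strand for SERPINB2 and chr14:22836335-22836584 on the forward strand for MMP14. Each is written 5′ to 3′ in the direction of the gene with motif matches in capitals.
PLAUR: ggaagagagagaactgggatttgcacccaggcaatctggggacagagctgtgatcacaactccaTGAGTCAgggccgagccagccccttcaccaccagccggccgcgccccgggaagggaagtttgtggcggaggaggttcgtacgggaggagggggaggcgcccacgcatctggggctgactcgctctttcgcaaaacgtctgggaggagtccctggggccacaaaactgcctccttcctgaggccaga
SERPINB2: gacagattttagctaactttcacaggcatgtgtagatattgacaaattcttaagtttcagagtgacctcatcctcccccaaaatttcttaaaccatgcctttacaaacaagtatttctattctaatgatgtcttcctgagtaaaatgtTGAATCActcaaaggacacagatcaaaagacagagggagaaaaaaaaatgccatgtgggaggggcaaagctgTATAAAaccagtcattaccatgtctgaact
MMP14: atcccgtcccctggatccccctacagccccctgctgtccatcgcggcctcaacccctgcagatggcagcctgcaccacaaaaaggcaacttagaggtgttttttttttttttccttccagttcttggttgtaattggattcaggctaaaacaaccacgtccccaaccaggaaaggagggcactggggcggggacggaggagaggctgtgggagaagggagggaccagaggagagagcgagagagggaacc

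Other genes of plasminogen activation, coagulation at the cell surface, pericellular proteolysis and matrix turnover were counted from a list of 67, of which 64 were in the tables and 44 were expressed enough to be tested. This list, too, was chosen with earlier results of these data known, so its counts are descriptive. After 2 h of Dex, 8 of the 44 rose (4.49% of all genes did), 3 fell (5.82%) and 33 did not pass, with a median log2 fold change of 0.067 against −0.018 over all genes. After 4 h, 12 rose (9.26% of all genes), 8 fell (18.2%) and 24 did not pass, with a median of 0.017 against −0.052. The risen genes at both times include SERPINF2 and MMP25, which passed the filter on low values only through their Dex samples. With CpdA, 0 of the 44 passed at 2 h in limma (2 had an unadjusted p under 0.05), where 6.18% of all genes passed. At 4 h of CpdA 4 of the 44 passed, where 20.5% of all genes did, as CTSL and SERPINB8 rose, MMP11 and THBD fell and 40 did not pass.

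The 6 listed genes past a fold change of 2 were called with Dex. At Dex 2 h, 4 of the 44 rose past that fold and 1 fell, where 2.01% of all genes passed it in either direction. At Dex 4 h, 4 rose and 2 fell, where 3.78% of all genes passed it. F3, which encodes tissue factor, the trigger of coagulation, had 497.6 and 336.2 RPKM with vehicle, 293.5 and 289.4 after 2 h of Dex, and 206.3 and 195.9 after 4 h. On the log2 scale F3 changed by −0.49 after the shorter Dex treatment (limma adjusted p = 0.0616), which did not pass, and by −1.02 after the longer (limma adjusted p = 0.000575). With CpdA F3 had 532.0 and 532.8 RPKM at 2 h and 343.0 and 336.1 at 4 h, and neither comparison with vehicle passed. Between the CpdA times F3 changed by −0.65 (adjusted p = 0.0188, limma). The vehicle column named 4 h (336.2) likewise lay below that named 2 h (497.6). Changes of F3 with Dex, set against both vehicle samples, may thus include a difference in time, which was not tested. SERPINF2 (α2-antiplasmin) rose by 1.56 and 2.10 on the log2 scale from 0.216 and 0.296 RPKM, and MMP25 by 1.82 and 1.83 from 0.118 and 0.169. SERPINF2 and MMP25 reached 0.5 RPKM only in Dex samples, so they were tested only because they were high there, and no p-value is given. THBD (thrombomodulin) rose by 1.71 and 1.36 from 29.3 and 22.9, and ADAMTS9, a proteoglycan-cutting protease, by 1.79 and 2.41 from 3.20 and 3.59. Between the CpdA times THBD changed by −0.42 (adjusted p = 0.021, limma), and its vehicle column named 4 h (22.9) was also the lower. ADAMTS1, another such protease, fell by 1.66 and 2.18 from 6.54 and 7.16 RPKM. For THBD, ADAMTS9 and ADAMTS1 the adjusted p was at most 2.44e-05 at both times (limma). Of the other matrix metalloproteinases, MMP15 rose by 0.57 and 0.84 and MMP19 by 0.44 and 0.53, and MMP17 fell at Dex 4 h by 0.58 on the log2 scale. The inhibitor TIMP3 fell by 0.19 and 0.71. MMP2, MMP7, MMP9, MMP10 and MMP13 stayed at or below 0.143 RPKM in every sample and were not tested.

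**Figure D4:**
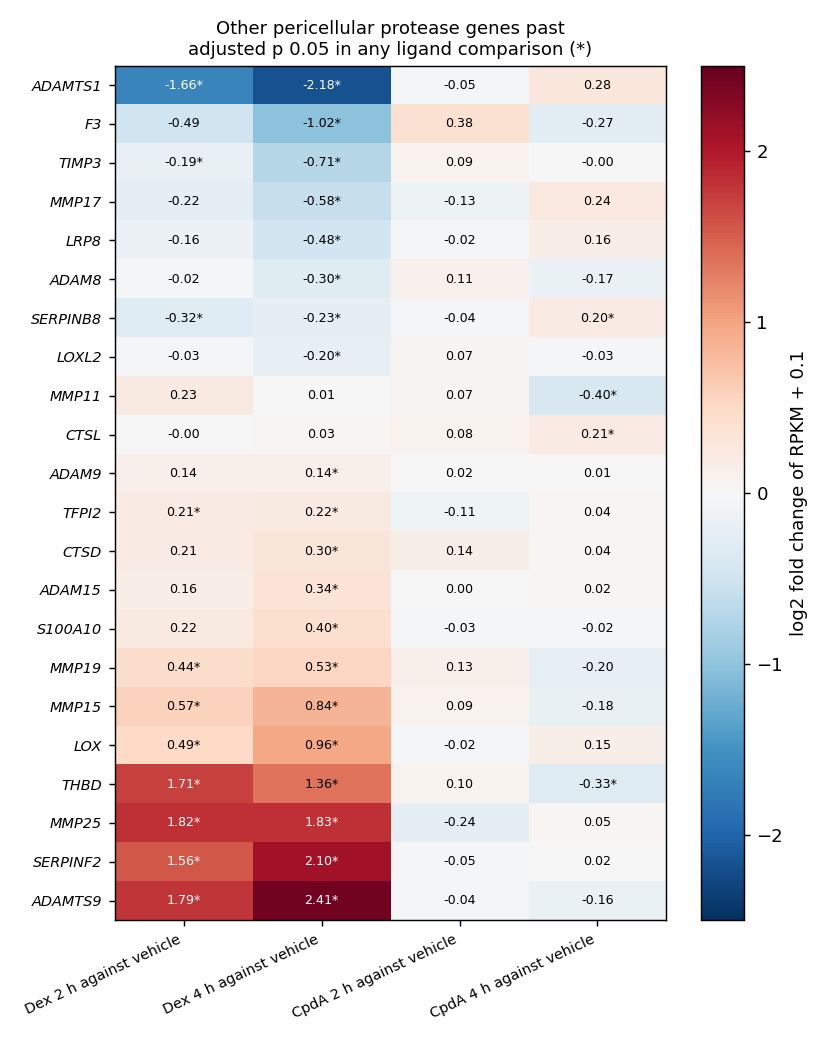
log2 fold changes of RPKM + 0.1 (colour and printed value) in each ligand comparison with vehicle for the 22 listed genes that passed an adjusted p of 0.05 in any of the 4 (passing values starred). ADAMTS9 (2.41) and ADAMTS1 (−2.18) at Dex 4 h mark the ends of the range. SERPINF2 and MMP25 passed the filter on low values only through the Dex samples.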

How the data were processed

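RNA-seq of 10 MDA-MB-231 samples was analysed, and the ChIP samples of the series were not used here. Reads of one end were aligned by the authors in TopHat 2.0.13, and they deposited one RPKM value per gene symbol and sample, estimated in Partek Genomics Suite 6.6. The submitters' processing notes name hg19. How transcripts were combined into symbols is not given in the sources used here. Groups came from the sample titles, and nothing beyond the words biological replicates says which cultures were separate.

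RPKM values were transformed to log2(RPKM + 0.1) with no further scaling, and genes with at least 0.5 RPKM in at least 2 samples were kept. limma 3.58.1 in R 4.3.3 (lmFit over 5 groups, eBayes with an abundance trend, Benjamini-Hochberg over the 12713 genes kept) gave the tests, and was tested on simulated data. Calls used an adjusted p of 0.05, with a fold change of 2 as a second cutoff. Relative depth came from the most common ratio between low values of 2 samples, and reads of SERPINB2 and MMP3 from the step that made all 10 values whole. Exact permutation tests, Poisson and binomial intervals used scipy 1.17.1. Promoter windows came from RefSeq. The named genes were all 9 members, the 6 listed genes with the largest called changes past a fold of 2, and the 3 genes most correlated with each member past that fold. A further listed gene is not reported here. Other listed genes were named after their values were seen. The members and lists were chosen with earlier results of these data known. Alternatives were pseudocounts of 1 and 0.01, no filter or at least 1 RPKM in every sample, quantile normalization, median scaling, no trend, a fit restricted to the groups compared, replicate number as a blocking factor, and each sample left out.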

Additional observations from a re-analysis of the deposited data

Results flagged for a closer look

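In 5 cases the level under a ligand differed between 2 h and 4 h by a direct limma test of the time points. Vehicle was not replicated at each time, so time in culture and time with the ligand cannot be told apart here. The vehicle columns named 2 h and 4 h had 280.9 and 240.6 RPKM of PLAU, a log2 difference of −0.22. Within each treated group, at a single time, PLAU replicate 2 was also below replicate 1. The log2 differences were −0.071 at Dex 2 h, −0.14 at Dex 4 h, −0.14 at CpdA 2 h and −0.17 at CpdA 4 h. In vehicle, time and replicate number thus cannot be told apart. Under Dex, PLAUR was lower at 4 h than at 2 h by a log2 difference of −0.54 (adjusted p = 0.000146, limma), and this passed in all 10 fits that left out 1 sample. PLAU under Dex differed by −0.44 (adjusted p = 0.013, limma), which was lost without Dex 2 h replicate 1 (−0.41, adjusted p = 0.0976) or replicate 2 (−0.48, adjusted p = 0.0555, limma). Under CpdA, PLAU differed by −0.37 (adjusted p = 0.0292, limma), PLAUR by 0.17 (adjusted p = 0.0297, limma) and SERPINE2 by 0.33 (adjusted p = 0.0499, limma). The CpdA differences of PLAU, PLAUR and SERPINE2 were lost in 4, 6 and 7 of those 10 fits, including each fit that left out CpdA 4 h replicate 1 (adjusted p = 0.0717, 0.185 and 0.126, limma), CpdA 4 h replicate 2 (adjusted p = 0.199, 0.136 and 0.267, limma) or CpdA 2 h replicate 1 (adjusted p = 0.198, 0.171 and 0.302, limma). PLAU was also lost without CpdA 2 h replicate 2 (adjusted p = 0.0795), PLAUR without that sample (adjusted p = 0.153) or either Dex 2 h replicate (adjusted p = 0.0507 for both), and SERPINE2 without either vehicle replicate (adjusted p = 0.0606 and 0.0604) or either Dex 2 h replicate (adjusted p = 0.0679 for both, all limma). Differences between the times that were not called passed when Dex 4 h samples were left out, for TIMP1 under Dex without replicate 2 (0.15, adjusted p = 0.0371) and for PLAT under CpdA without either replicate (−0.12, adjusted p = 0.0252 for both, limma). Groups of 2 were too small to look for single outlying samples.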

How the results depend on the processing

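Of 26 called differences of members over the 8 comparisons, 15 passed under all 19 alternatives and 11 did not. No called difference changed sign. Of 1064 recomputed values, 958 kept their direction and side of the threshold, 57 no longer passed, 14 newly passed and 35, called under neither setting, changed sign. Against the 1 member called at CpdA 2 h, 2 were called with quantile normalization and with the replicate block, and 0 with median scaling, without the trend and with only the samples of the contrast (limma, where 2, 2 and 4 members had an unadjusted p under 0.05). With no filter on low values and more genes in the adjustment, 1 member in place of 3 was called at CpdA 4 h, 1 in place of 2 between the Dex times, 1 in place of 3 between the CpdA times, and 3 in place of 4 both at Dex 2 h and between the ligands at 2 h, where PLAU was lost (adjusted p = 0.0777 and 0.0659, limma), while 6 in place of 5 were called between the ligands at 4 h. Without the trend, 0 were called between the CpdA times (limma, 4 at an unadjusted p under 0.05). With each of the 10 samples left out, the count of called members ran from 3 to 4 at Dex 2 h, 4 to 5 at Dex 4 h, 0 to 2 at CpdA 2 h, 1 to 3 at CpdA 4 h, 2 to 4 and 4 to 6 between the ligands at 2 h and 4 h, 1 to 3 between the Dex times and 0 to 4 between the CpdA times. Calls over all genes moved in the same fits, from 216 to 1446 at CpdA 2 h and from 261 to 2500 between the CpdA times. A group left with 1 sample was assumed to vary like the others. The 4 genes that did not overlap between ligands kept their exact permutation p with median scaling, and the 3 that passed the filter kept it with quantile normalization. Quantile normalization left SERPINB2, which failed the filter, unchanged. A pseudocount cannot change the order of the samples, so the exact p of these genes could not move with it. With quantile normalization TIMP1 also passed at CpdA 4 h (−0.16, adjusted p = 0.0171, limma). Where no construction is named, the cause was not tested. Few reads limit SERPINB2 and MMP3, and 2 samples a group limit every call.

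The groups share replicate numbers. Over all genes, same-numbered samples deviated together with correlations of −0.057 to 0.20 over 10 pairs of groups, 3 of them over 0.1. The main model took them to share only a number, which correlations over all genes do not settle for single members. PLAU and TIMP1 had replicate 2 below replicate 1 in all 5 groups. MMP1 and SERPINE2 had it above in the 4 treated groups, and PLAT, PLAUR and MMP14 had both signs. In vehicle the replicate number also goes with the 2 h and 4 h of the column names, so there the block cannot be told apart from time. With the replicate block the counts were 4 at Dex 2 h, 5 at Dex 4 h, 2 at CpdA 2 h, 4 at CpdA 4 h, 4 and 5 between the ligands, and 2 and 4 between the times of Dex and CpdA. Calls over all 12713 genes were also more numerous, with 3763 against 3487 at Dex 4 h, 918 against 786 at CpdA 2 h and 2884 against 2609 at CpdA 4 h. MMP1 then passed at Dex 4 h (−0.51, adjusted p = 0.0248, limma) and CpdA 4 h (−0.50, adjusted p = 0.0352, limma), and PLAT at CpdA 2 h (−0.14, adjusted p = 0.0341, limma) and between the CpdA times (−0.12, adjusted p = 0.0345, limma). PLAU at Dex 2 h, called without the block too, had an adjusted p of 0.000362 with it (−0.40, limma).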

Other observations

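The split of MMP1 between treated replicates was looked for in the other genes after its values were seen. Among the 12713 genes, 3 had replicate 2 above replicate 1 by more than 0.5 on the log2 scale in all 4 treated groups, and 0 had replicate 2 that far below. MMP1 was one, with differences of 0.58, 0.62, 0.67 and 0.56 in Dex 2 h, Dex 4 h, CpdA 2 h and CpdA 4 h and 0.034 between the vehicle replicates. The others were the small nucleolar RNA genes SNORA10 (0.83 to 1.46, with 0.18 in vehicle) and SNORD26 (0.69 to 1.97, with 0.52 in vehicle). The overlapping pseudogene WTAPP1 on the other strand did not exceed 0.0149 RPKM.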
